A study of Mus musculus with 20 samples.

Results

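The genes described are 10 that mark the lining cells of blood vessels in the testis: Kdr, Flt1, Tek, Tie1, Cdh5, Pecam1, Esam, Plvap, Ly6c1 and Vwf. They were chosen by symbol from a count table of 22066 gene symbols, all 10 were found, and all 10 passed the filter on low counts, as did 16534 symbols in all. RNA of whole testis from male NSG mice, an immunodeficient strain (NOD scid gamma) that accepts human cells, was sequenced in 5 groups of 4 samples. All mice entered the study at an age of 6 weeks. The NC group were normal controls. The ALL group had been given 400000 patient-derived human B-ALL cells (acute lymphoblastic leukaemia of B-cell type) through the tail vein and no drug. The VCR group were given vincristine sulfate, a drug that binds tubulin and blocks cell division, at 0.5 mg/kg into the peritoneum once a week for 3 weeks from day 69. The Low-VCR and High-VCR groups were engrafted with the leukaemia cells and given vincristine on that schedule, and had few or many leukaemia cells in the peripheral blood, respectively. Control groups were injected with saline, per the labels' protocols. Labels of VCR mention no engraftment, while the series' design text describes all 5 groups as xenograft mice, so whether VCR mice carried leukaemia cells could not be settled. Nothing in the labels says whether the 4 samples of a group are 4 mice; a p-value here reflects spread among samples, which may be technical.

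Endothelial cells line every blood vessel and hold together through junctions built on VE-cadherin, the product of Cdh5. Their growth and survival are steered by vascular endothelial growth factors (VEGF), read by the receptors encoded by Kdr (VEGFR2) and Flt1 (VEGFR1), and by angiopoietins, read by the receptor Tek (Tie2) with its partner Tie1. KDR carries most of the growth signal, whereas FLT1 binds VEGF-A tightly, signals weakly, and is also made as a secreted form that takes ligand away from KDR. In the testis the vessels run between the seminiferous tubules, in the compartment that holds Leydig cells and macrophages, and do not enter the tubules. The other members are surface or secreted proteins of these cells: Pecam1 (CD31) and Esam at cell contacts, Plvap in the diaphragms of fenestrae and caveolae, Ly6c1 as a small membrane-anchored antigen, and Vwf as the clotting protein stored in endothelial granules and in platelets.

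The promoters of the 4 receptor genes are shown because they are the VEGF receptor pair, of which Kdr and Flt1 moved apart in the counts, and the angiopoietin receptor pair, Tek and Tie1. RefSeq promoter sequences of build GRCm38.p6 (250 bases before the start to 50 after it, 5′ to 3′ on the gene's strand) were available here for 5 of the 10 members. Capitals mark GGAA or its reverse complement TTCC, the core of the sites bound by ETS factors, the family that drives many endothelial genes. The Kdr window lies at chr5:75978406-75978705 on the minus strand, the Flt1 window at chr5:147725962-147726261 on the minus strand, the Tek window at chr4:94739039-94739338 on the plus strand and the Tie1 window at chr4:118489800-118490099 on the minus strand.
Kdr: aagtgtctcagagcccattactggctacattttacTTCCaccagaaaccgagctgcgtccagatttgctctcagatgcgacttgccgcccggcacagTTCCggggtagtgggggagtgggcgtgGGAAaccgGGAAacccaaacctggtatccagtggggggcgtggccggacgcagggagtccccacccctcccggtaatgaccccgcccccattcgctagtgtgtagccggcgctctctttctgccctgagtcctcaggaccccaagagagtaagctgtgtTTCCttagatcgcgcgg
Flt1: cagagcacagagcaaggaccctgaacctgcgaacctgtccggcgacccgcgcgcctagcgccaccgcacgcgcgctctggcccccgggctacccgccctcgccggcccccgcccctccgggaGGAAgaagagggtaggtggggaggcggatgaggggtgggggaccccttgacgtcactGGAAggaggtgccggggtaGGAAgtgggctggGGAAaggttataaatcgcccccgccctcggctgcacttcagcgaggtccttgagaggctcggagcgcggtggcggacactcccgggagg
Tek: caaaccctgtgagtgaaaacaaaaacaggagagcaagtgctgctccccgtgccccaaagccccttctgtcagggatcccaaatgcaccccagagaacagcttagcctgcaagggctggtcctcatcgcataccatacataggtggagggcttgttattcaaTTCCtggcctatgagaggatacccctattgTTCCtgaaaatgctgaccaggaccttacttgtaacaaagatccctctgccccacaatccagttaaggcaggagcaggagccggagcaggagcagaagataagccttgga
Tie1: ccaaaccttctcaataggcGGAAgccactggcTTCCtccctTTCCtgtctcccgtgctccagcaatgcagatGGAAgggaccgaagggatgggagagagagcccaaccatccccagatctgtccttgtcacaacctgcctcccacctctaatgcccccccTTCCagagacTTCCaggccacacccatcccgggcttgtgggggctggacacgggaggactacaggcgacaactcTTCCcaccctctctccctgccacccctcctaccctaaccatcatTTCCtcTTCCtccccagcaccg
The GGAA core was found 5 times in the Kdr window, 4 times in Flt1, 2 times in Tek and 9 times in Tie1, on either strand. It was present in 96.0% of the 32851 promoter windows of the same length, with a median of 3.0 matches, so its presence sets none of the 4 apart. CAGGAAG, a longer ETS form that contains the same core, was in none of the 4 windows and in 13.3% of all. The GC box GGGCGG was found 2 times in Kdr and 3 times in Flt1 but not in the Tek or Tie1 windows, and 35.7% of all windows held it. GATAAG was found once in the Tek window and in 7.44% of all. Kdr and Flt1 had 19 and 29 CG dinucleotides against 3 in Tek and 7 in Tie1 (median of all windows 7.0). The Kdr and Flt1 windows were thus both rich in CG and held the same searched motifs, while the counts of these genes differed as described next.

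Total counts lay between 9.43 and 16.4 M (mega) per library, so that 3 counts, the limit that a count of 0 allows, corresponded to 0.167 to 0.365 CPM (counts scaled to a common library size by edgeR's TMM method). The share of counts from mitochondrial genes was 1.78 to 2.6% in the libraries without vincristine and 4.69 to 11.9% in those with it. All 12 tested genes of a spermatid list fell in VCR against NC, and the summed level of the list was 17700 to 21400 CPM in NC and 259 to 8130 CPM in VCR. All 18 genes of a list of Sertoli cells, the somatic support cells of the tubules, rose in the same comparison, with a median log2 fold change of 1.92. Of all genes tested, 42.1% rose in it and 77.7% changed in either direction. In bulk tissue, more cells of a type and more RNA per cell cannot be told apart, and the part that the loss of germ cell RNA had in the endothelial values was not tested directly. The vessel genes are therefore also given relative to Sertoli genes and to other endothelial genes. Pecam1 was listed at 0 in NC 4 and ALL 1, and Tek in NC 3 and ALL 4, although other untreated libraries held up to 36 and 43 counts of them. Such a 0 occurred in 1 or more untreated libraries for 367 of the 14989 genes that averaged 10 or more counts there (2.45%), and values of Pecam1 and Tek are less certain for it.

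Per kilobase of exon, Cdh5 had the highest mean level of the 10 genes in NC (2.13 CPM per kb), followed by Esam (1.87) and Vwf (1.83). Tie1 stood at 1.21, Kdr at 0.554, Flt1 at 0.529, Tek at 0.478 and Ly6c1 at 0.411 CPM per kb. Pecam1 (0.273) and Plvap (0.16) were lowest. Over the 4 libraries, the ranges of neighbours in this order overlapped, Cdh5 with Esam and Esam with Vwf included, except between Vwf and Tie1 and between Tie1 and Kdr. In VCR the order was Cdh5 (8.97 CPM per kb), Ly6c1 (7.69), Esam (7.22), Kdr (5.04), Vwf (3.72), Tie1 (3.70), Plvap (2.65), Tek (1.43), Pecam1 (1.12) and Flt1 (0.447). Cdh5 stayed first, while Ly6c1 moved from rank 8 to rank 2 and Flt1 from rank 6 to rank 10. Flt1 was also last in Low-VCR (0.441 CPM per kb) and High-VCR (0.518). Exon lengths came from the GENCODE M21 annotation of the older build, so levels between genes are approximate.

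**Figure D1:**
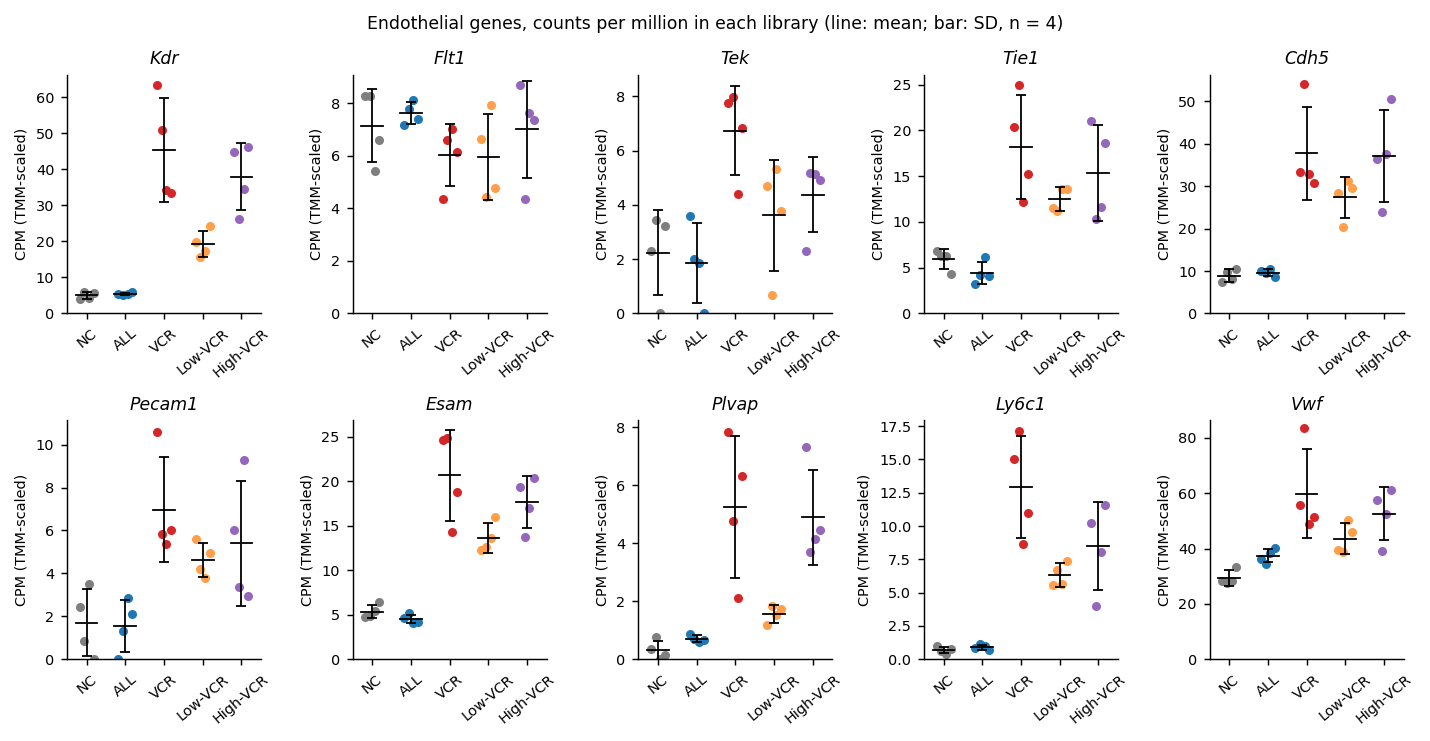
CPM (TMM-scaled) of the 10 endothelial genes in each of the 20 libraries; points are libraries, lines are group means and bars are SD (n = 4). Kdr lies between 3.9 and 6.03 CPM in the 8 libraries without vincristine and between 15.7 and 63.3 in the 12 with it, while the Flt1 points cover about the same range in all 5 groups.

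The first question was how these genes differed between the VCR group and normal controls, asked by VCR against NC. Of the 10 genes 8 rose, none fell, and their median log2 fold change was 2.00 against 0.10 over all genes tested (edgeR's quasi-likelihood test on counts, Benjamini-Hochberg adjusted over all genes, called under 0.05). In that comparison 42.1% of all genes were called higher and 77.7% in either direction, so the count stands against a wide background. The genes that rose most were Ly6c1 (18.7-fold), Plvap (17.0-fold) and Kdr (9.04-fold). Without NC 2 the log2 fold change of Plvap was 4.96 in place of 4.09, and Plvap then stood above Ly6c1, as it did without VCR 2. Cdh5, Pecam1, Esam and Tie1 rose 3.08-fold to 4.20-fold and Vwf 2.03-fold. Tek missed the threshold and Flt1 showed no rise. For 9 of the 10 genes the VCR libraries all lay above the NC libraries, as they did for 39.7% of all genes.

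Kdr, the main signalling receptor for VEGF-A, had 3.90, 6.03, 4.36 and 5.70 CPM in NC 1 to 4 and 63.3, 51.0, 34.2 and 33.3 CPM in VCR 1 to 4. All VCR libraries lay far above all NC libraries. Its log2 fold change was 3.18 ± 0.24 (SE, adjusted p = 3.1e-08). Flt1, the VEGF receptor that also circulates as a decoy, had 8.28, 8.29, 5.43 and 6.60 CPM in NC and 4.34, 6.61, 7.02 and 6.16 CPM in VCR. The groups overlapped, and the log2 fold change was -0.24 ± 0.23 (adjusted p = 0.339, 95% interval -0.73 to 0.25). The interval thus leaves no room for a rise like that of Kdr. Counts per symbol do not separate the secreted from the full-length form of Flt1.

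The counts of Kdr per count of Flt1, a ratio within each library that no scaling changes, lay between 0.471 and 0.864 in NC and between 0.662 and 0.791 in ALL. In VCR the ratio was 14.6, 7.72, 4.87 and 5.41 in libraries 1 to 4. It was 2.97, 3.53, 2.19 and 5.06 in Low-VCR and 5.16, 6.04, 4.54 and 6.26 in High-VCR. Flt1 was the more counted of the pair in all 8 libraries without vincristine, and Kdr in all 12 with it. Flt1 has more exon to count (13.5 kb against 9.03 kb for Kdr), so equal counts do not mean equal levels. Per kb the means of Kdr and Flt1 were already 0.554 and 0.529 CPM in NC and 0.605 and 0.564 in ALL. VCR 1, which had the highest ratio, also had the highest mitochondrial share (11.9%), and the part of that in the ratio was not tested. Since this ratio was looked at after both genes' values were seen, it is a description.

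**Figure D2:**
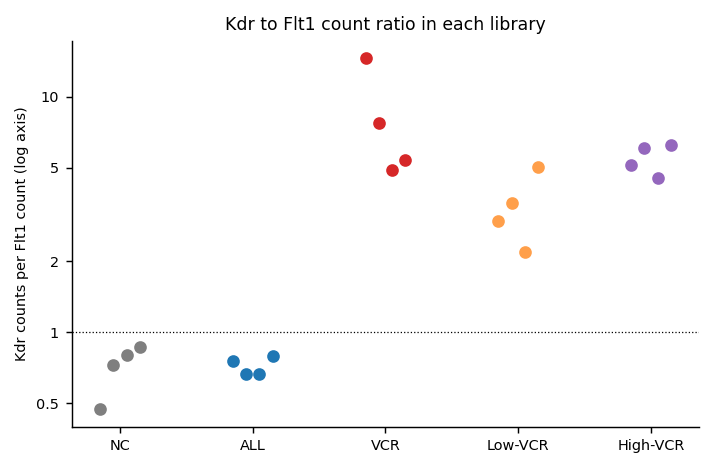
Counts of Kdr divided by counts of Flt1 in each library, on a log axis; the dotted line marks equal counts, not equal levels per kb. The 8 libraries of NC and ALL lie between 0.471 and 0.864, and the 12 libraries given vincristine between 2.19 and 14.6.

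Of the angiopoietin receptor pair, Tie1 rose and Tek did not pass the test. Tie1, which has no ligand of its own and modulates Tek, went from 4.35 to 6.82 CPM in NC to 12.2 to 25.0 CPM in VCR (log2 fold change 1.62 ± 0.26, adjusted p = 2.94e-05). Tek, the receptor for angiopoietins, had 2.31, 3.44, 0 and 3.23 CPM in NC and 7.77, 7.97, 4.39 and 6.85 CPM in VCR. All VCR values were higher, but the spread in NC was wide because of the library listed at 0, and the log2 fold change was 1.58 ± 0.75 (adjusted p = 0.062). With library size alone as the scaling Tek passed (1.98, adjusted p = 0.0244).

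The junction genes rose by similar amounts. Cdh5, VE-cadherin, had 7.31, 9.80, 8.14 and 10.5 CPM in NC and 33.4, 54.0, 32.8 and 30.7 CPM in VCR, with a log2 fold change of 2.07 ± 0.22 (adjusted p = 3.36e-07). Esam, an adhesion molecule of endothelial tight junctions, rose from 4.75 to 6.45 CPM in NC to 14.3 to 24.9 CPM in VCR (1.94 ± 0.19, adjusted p = 1.01e-07). Pecam1, an adhesion molecule that leukocytes and platelets also carry, had 2.44, 0.861, 3.49 and 0 CPM in NC and 10.6, 5.85, 5.38 and 6.01 CPM in VCR. Its log2 fold change had the size of that of Cdh5 with a larger error, 2.07 ± 0.74 (adjusted p = 0.0168), and was 2.77 without NC 3.

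Plvap and Ly6c1 were almost absent without the drug. Plvap, which builds the diaphragms of fenestrae and caveolae, had 0.365, 0.753, 0 and 0.150 CPM in NC and 7.85, 4.78, 2.10 and 6.31 CPM in VCR. All 4 NC libraries together held 12 counts against 281 in VCR, and the log2 fold change was 4.09 ± 0.54 (adjusted p = 3.31e-06). Ly6c1 had 0.975, 0.646, 0.388 and 0.750 CPM in NC and 15, 17.1, 8.65 and 11 CPM in VCR (4.22 ± 0.35, adjusted p = 3.81e-08). Its near-identical neighbour Ly6c2, best known from inflammatory monocytes of the mouse, held 2 counts in NC and 25 in VCR, against 28 and 699 of Ly6c1. The ratio of Ly6c2 corrected for library size was 9.40 with a 95% counting interval of 2.34 to 81.9, and it was too low to be tested. How the authors' counting divided reads shared by both genes is not given in the sources used here. Ly6a and Ly6e, other genes of this interferon-responsive family, rose as well, by 4.74 ± 0.35 and 4.54 ± 0.34 on the log2 scale.

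Vwf, the clotting protein of endothelial granules, had 28.1, 27.6, 28.4 and 33.5 CPM in NC and 55.8, 83.5, 48.7 and 51.3 CPM in VCR. The groups did not overlap, and the log2 fold change of 1.02 ± 0.17 (adjusted p = 2.66e-05) was the smallest of the 8 called. Platelets carry Vwf too: of a list of 9 platelet genes 4 could be tested, of which 1 (Pf4, which macrophages also make) rose. Of all genes, 42.1% rose in VCR against NC and 42.4% in High-VCR against ALL. The summed level of the platelet list was 11.5 to 14.6 CPM in NC and 16.5 to 27.5 CPM in VCR, and Gp9, a defining platelet gene, was at 0 in all NC and ALL libraries. In High-VCR against ALL 2 of the 4 rose, Pf4 and Gp1bb, a subunit of the platelet receptor for Vwf (1.79 ± 0.32, adjusted p = 8.98e-05), and the summed level was 12.5 to 13.8 CPM in ALL and 18.9 to 31.5 CPM in High-VCR. Gp1bb was also higher in High-VCR than in Low-VCR (1.06 ± 0.30, adjusted p = 0.0423), and the part of platelets in the Vwf values was not tested.

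A scaling on other cells' genes asks whether the members rose beyond them. When each library was scaled on 20 other endothelial genes, 5 of the 10 genes were higher in VCR than in NC and 2 were lower, where 14.1% of all genes were called higher and 66.2% lower. Ly6c1 (log2 fold change 2.81 ± 0.30), Plvap (2.69 ± 0.54) and Kdr (1.74 ± 0.22) led, followed by Cdh5 (0.64 ± 0.22) and Esam (0.52 ± 0.17). Flt1 fell by 1.61 ± 0.24 (adjusted p = 8.23e-06) and Vwf by 0.40 ± 0.14 (adjusted p = 0.0173), the latter call being lost without NC 4 (-0.26) or VCR 1 (-0.35). The median of all genes on this scale was -1.28. Of the 20 endothelial genes used for the scaling, 6 were themselves called higher on it and 5 lower. Scaled on the 18 Sertoli genes, where 6.82% of all genes were called higher and 75.9% lower, the members' median was 0.03 and that of all genes -1.80. On that scale Ly6c1 (2.28 ± 0.23), Plvap (2.17 ± 0.52) and Kdr (1.22 ± 0.16) were higher, Flt1 (-2.11 ± 0.26) and Vwf (-0.91 ± 0.14) were lower, and Cdh5, Pecam1, Esam, Tie1 and Tek, between -0.35 and 0.14, did not pass. The Sertoli-scaled difference of Esam was -0.01 ± 0.12. Tie1 would be called lower without NC 4 (-0.50, adjusted p = 0.0312). Kdr, Plvap and Ly6c1 thus rose, and Flt1 and Vwf fell, relative to both reference lists.

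**Figure D3:**
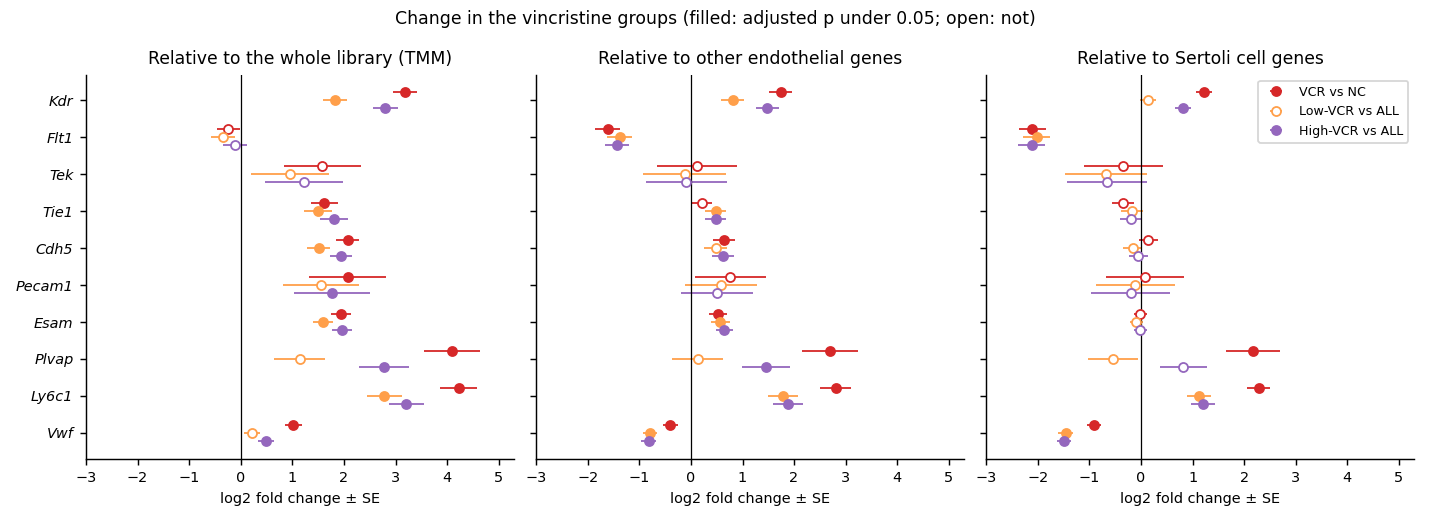
Log2 fold change with its SE of each gene in VCR against NC, Low-VCR against ALL and High-VCR against ALL, under TMM scaling (left), relative to 20 other endothelial genes (middle) and relative to 18 Sertoli genes (right); filled points passed an adjusted p of 0.05. In all 3 panels Kdr and Ly6c1 of VCR lie right of 0, whereas Flt1 lies at -0.24 in the left panel and at -1.61 and -2.11 in the others.

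In engrafted mice, the drug groups were compared with ALL, which both comparisons share. Of the 10 genes 5 rose in Low-VCR (Kdr, Tie1, Cdh5, Esam and Ly6c1; 36.4% of all genes were called higher) and 8 rose in High-VCR (42.4% of all genes), and none fell in either. The median log2 fold change was 1.5 in Low-VCR and 1.87 in High-VCR, against 0.08 and 0.16 over all genes. The 5 genes called in Low-VCR rose 2.82-fold to 6.89-fold. Ly6c1 rose most in both groups, by 2.78 ± 0.34 (Low-VCR) and 3.21 ± 0.34 (High-VCR) on the log2 scale.

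Kdr had 5.44, 5.16, 5.37 and 5.85 CPM in ALL, 19.7, 15.7, 17.4 and 24.2 CPM in Low-VCR and 44.8, 26.3, 34.6 and 46.1 CPM in High-VCR. The 3 groups did not overlap. The log2 fold change against ALL was 1.82 ± 0.23 in Low-VCR (adjusted p = 6.28e-06) and 2.80 ± 0.24 in High-VCR (adjusted p = 6.26e-08). Flt1 had 7.18 to 8.11 CPM in ALL, 4.45 to 7.94 in Low-VCR and 4.35 to 8.68 in High-VCR. Its log2 fold changes were -0.35 ± 0.23 (adjusted p = 0.185) and -0.12 ± 0.23 (adjusted p = 0.631), and the second turned to 0.05 without High-VCR 2.

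Plvap had 0.870, 0.709, 0.586 and 0.662 CPM in ALL, 1.17, 1.84, 1.51 and 1.74 CPM in Low-VCR and 7.32, 3.70, 4.14 and 4.47 CPM in High-VCR. The groups followed each other without overlap. Low-VCR missed the threshold at 1.14 ± 0.50 (adjusted p = 0.0647) and passed with library size alone or when fitted with fewer groups, while High-VCR was at 2.78 ± 0.48 (adjusted p = 6.72e-05). Ly6c1 had 0.870, 1.11, 0.977 and 0.662 CPM in ALL, 5.59, 6.67, 5.64 and 7.40 CPM in Low-VCR and 10.2, 4.02, 8.08 and 11.6 CPM in High-VCR. The drug groups overlapped each other and both lay above ALL.

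Vwf had 36.4, 34.6, 38.4 and 40.1 CPM in ALL, 39.6, 38.7, 50.3 and 45.9 CPM in Low-VCR and 57.4, 39.3, 52.4 and 61.3 CPM in High-VCR. Both drug groups overlapped ALL. The log2 fold change was 0.22 ± 0.16 in Low-VCR (adjusted p = 0.24) and 0.49 ± 0.16 in High-VCR (adjusted p = 0.0123), and the second was lost with DESeq2 (0.33, adjusted p = 0.107). Cdh5, at 8.61 to 10.4 CPM in ALL, rose to 20.4 to 31.2 CPM in Low-VCR and 24.0 to 50.5 CPM in High-VCR (1.51 ± 0.22 and 1.94 ± 0.22). Tie1 rose by 1.49 ± 0.27 and 1.80 ± 0.27 and Esam by 1.59 ± 0.19 and 1.96 ± 0.19.

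Pecam1 had 0, 1.32, 2.83 and 2.10 CPM in ALL, 5.59, 4.22, 3.80 and 4.94 CPM in Low-VCR and 6.04, 3.37, 9.27 and 2.96 CPM in High-VCR. It missed the threshold in Low-VCR (1.55 ± 0.74, adjusted p = 0.0845) and passed in High-VCR (1.77 ± 0.74, adjusted p = 0.039). The Low-VCR difference passed when only the groups compared were fitted (adjusted p = 0.0451) or with the library-name range as a term (adjusted p = 0.0385). The High-VCR call was lost with the replicate block (adjusted p = 0.0596), with no gene filter (adjusted p = 0.0541) and with DESeq2 (adjusted p = 0.0518), and without ALL 1 (1.37), ALL 2 (1.70), ALL 4 (1.94), High-VCR 1 (1.72) or High-VCR 3 (1.38). Tek had 3.59, 2.02, 1.86 and 0 CPM in ALL, 4.69, 0.690, 5.31 and 3.78 CPM in Low-VCR and 2.31, 5.19, 5.13 and 4.91 CPM in High-VCR. The groups overlapped, and Tek passed in neither (0.95 ± 0.76 and 1.23 ± 0.76, adjusted p = 0.282 and 0.153).

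Relative to other endothelial genes, 4 genes were higher and 2 lower in Low-VCR against ALL, and 6 higher and 2 lower in High-VCR. On that scale 11.7% and 14.7% of all genes were called higher and 60.8% and 63.6% lower. Of the 20 genes used for the scaling, 4 were higher and 7 lower in Low-VCR, and 3 higher and 5 lower in High-VCR. Kdr stood at 0.81 ± 0.22 and 1.48 ± 0.22, Ly6c1 at 1.78 ± 0.29 and 1.88 ± 0.29, and Esam at 0.57 ± 0.18 and 0.65 ± 0.17. Tie1 was called in both (0.48 ± 0.20 in each, adjusted p = 0.041 and 0.0386), and both calls were lost without ALL 1, ALL 2 or ALL 4, at 0.40 to 0.45. The Low-VCR call of Tie1 was also lost without Low-VCR 1, 3 or 4 and its High-VCR call without High-VCR 1 or 4 (0.36 each). In High-VCR, Plvap (1.46 ± 0.47) and Cdh5 (0.62 ± 0.22) were called as well, Cdh5 not without High-VCR 4 (0.43), while in Low-VCR Cdh5 passed without ALL 1 (0.56) or Low-VCR 2 (0.60). Flt1 was lower in both (-1.38 ± 0.24 and -1.44 ± 0.23), as was Vwf (-0.79 ± 0.14 and -0.82 ± 0.14). The medians of all genes were -0.94 and -1.13, so Vwf fell less than these. Relative to Sertoli genes Ly6c1 was higher in both groups (1.12 ± 0.23 and 1.20 ± 0.23) and Kdr in High-VCR (0.81 ± 0.16) but not in Low-VCR (0.14 ± 0.16). Plvap did not pass on that scale in either group (-0.54 ± 0.48 and 0.82 ± 0.46). Flt1 (-2.02 ± 0.26 and -2.12 ± 0.26) and Vwf (-1.46 ± 0.14 and -1.49 ± 0.14) were lower in both, with medians of all genes at -1.59 and -1.76. On the Sertoli scale 3.04% (Low-VCR) and 5.01% (High-VCR) of all genes were called higher and 76.8% and 76.1% lower.

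Whether Low-VCR and High-VCR differed from ALL as VCR differed from NC was tested by the difference of responses. For Low-VCR, 2 of the 10 genes had a smaller response than VCR, Kdr by -1.36 ± 0.32 (adjusted p = 0.0356) and Plvap by -2.95 ± 0.76 (adjusted p = 0.0422) on the log2 scale. Of all genes, 1.26% were called lower in this test. Ly6c1 (-1.44 ± 0.49, adjusted p = 0.0843) and Vwf (-0.80 ± 0.23, adjusted p = 0.0521) did not pass. The calls of Kdr and Plvap were both lost when 1 library was left out, whether NC 1, 3 or 4, any of ALL 1 to 4, VCR 2, or Low-VCR 1 or 3. Without them the Kdr difference was -1.26 to -1.43 with adjusted p of 0.0543 to 0.0801, and that of Plvap -2.54 to -3.04 with adjusted p of 0.0671 to 0.0845. Without NC 2 the Plvap difference was -3.82. Without VCR 3, 4 genes passed, Ly6c1 (-1.59) and Vwf (-0.89) among them, and Vwf also passed without VCR 1 or 4 or Low-VCR 4 and with DESeq2 (-0.86, adjusted p = 0.019). For High-VCR none of the 10 genes passed with edgeR or DESeq2, and 1 (Vwf, -0.53 ± 0.23) was under an unadjusted p of 0.05, while 0.00605% of all genes were called.

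High-VCR and Low-VCR differ in how many leukaemia cells the blood held. Kdr and Plvap were higher in High-VCR, by 0.98 ± 0.22 (adjusted p = 0.0215) and 1.64 ± 0.43 (adjusted p = 0.0307) on the log2 scale, where 3.13% of all genes were called higher. Of other cells' genes, 3 of 11 Leydig genes were higher too (median 0.56) and 3 of 12 spermatid genes lower, and their part was not tested. The share of all genes called lower in this comparison is not given here. The other 8 vessel genes did not pass, among them Cdh5 (0.44 ± 0.21), Esam (0.37 ± 0.17), Ly6c1 (0.42 ± 0.28) and Vwf (0.27 ± 0.16). The Kdr and Plvap calls were both lost without Low-VCR 1, 2 or 3 or High-VCR 1 or 4, at 0.79 to 0.99 for Kdr and 1.39 to 1.69 for Plvap, and without High-VCR 2 Cdh5 passed too (0.60, adjusted p = 0.0433). By number, the library names of engrafted mice formed a lower and a higher range, each holding 2 libraries per group. Within the ranges the difference of Kdr was 0.96 and 0.96, and that of Plvap 1.77 in the lower and 1.36 in the higher. Relative to Sertoli genes Kdr was still higher in High-VCR (0.66 ± 0.15, adjusted p = 0.0249; 0.206% of all genes), a call lost without Low-VCR 1 or 3 or High-VCR 1 or 4. Relative to other endothelial genes, Kdr (0.67 ± 0.21, adjusted p = 0.0578) and Plvap (1.33 ± 0.42, adjusted p = 0.0628) did not pass, where 0.218% of all genes did, although Kdr passed without Low-VCR 4 (0.80) or High-VCR 2 (0.75).

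Low-VCR was also lower than VCR for 5 of the 10 genes, where 13.6% of all genes were called lower. By number, all library names of NC and VCR lay below those of the ALL, Low-VCR and High-VCR groups. Group and library-name range thus cannot be told apart here, nor in High-VCR against VCR or ALL against NC. Kdr fell by 1.24 ± 0.22 (adjusted p = 0.00282), Plvap by 1.74 ± 0.43 (adjusted p = 0.00923), Ly6c1 by 1.03 ± 0.28 (adjusted p = 0.0132), Esam by 0.60 ± 0.17 (adjusted p = 0.0187) and Vwf by 0.46 ± 0.16 (adjusted p = 0.043). The groups did not overlap for Kdr, Plvap and Ly6c1, as for 11.5% of all genes in this direction. Cdh5 (-0.46 ± 0.21, adjusted p = 0.102) and Tie1 (-0.54 ± 0.25, adjusted p = 0.103) did not pass. The Esam and Vwf calls were both lost without VCR 1, VCR 2, Low-VCR 1 or Low-VCR 2, at -0.50 to -0.55 for Esam and -0.25 to -0.49 for Vwf, that of Ly6c1 also without VCR 2 (-0.87), and that of Vwf without Low-VCR 4 (-0.48). Vwf was lost with the replicate block as well (adjusted p = 0.065) and with no gene filter (adjusted p = 0.0654). The count dropped to 0 when only these 2 groups were fitted (adjusted p = 0.101 for Kdr). Tie1 passed without VCR 3 (-0.69, adjusted p = 0.0362). Genes of other cells differed here as well. In Low-VCR against VCR, 9 of 12 spermatid genes were higher, and the share of all genes called higher is not given here. Lower were 9 of 11 Leydig genes (median -0.88), 8 of 9 macrophage genes (-0.71), 4 of 7 leukocyte genes (-0.66) and 6 of 12 interferon-stimulated genes (-0.72). The part of all these lists in the vessel values was not tested. Relative to Sertoli genes Kdr (-0.87 ± 0.15), Plvap (-1.40 ± 0.41) and Ly6c1 (-0.68 ± 0.19) were lower, where 2.22% of all genes were. Relative to other endothelial genes Kdr (-0.80 ± 0.21, adjusted p = 0.00968) and Plvap (-1.31 ± 0.42, adjusted p = 0.029) were lower, where 0.925% of all genes were. On the Sertoli scale the calls of both Plvap and Ly6c1 were lost without Low-VCR 1 or 3, that of Plvap also without VCR 1 or 4 and that of Ly6c1 without VCR 2. On the other scale the Plvap call was lost without VCR 1 or 4 or Low-VCR 1 or 3.

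High-VCR and VCR did not differ in any of the 10 genes by edgeR or DESeq2, and 0.00605% of all genes were called. Ly6c1, at -0.61 ± 0.27, was the 1 gene with an unadjusted p under 0.05, and Kdr stood at -0.26 ± 0.21. Relative to Sertoli genes or to other endothelial genes none was called either.

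Engraftment without the drug was tested by ALL against NC, in which neither any of the 10 genes nor any of all genes tested (0%) was called by edgeR. DESeq2 called none of the 10, and none was under an unadjusted p of 0.05. The widest differences were those of Plvap (1.21 ± 0.63), Tie1 (-0.42 ± 0.27), Ly6c1 (0.41 ± 0.40) and Vwf (0.35 ± 0.16) on the log2 scale. Vwf was the 1 gene whose groups did not overlap, as was the case in this direction for 3.41% of all genes.

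The ligands of these receptors were followed as a list of 8 genes, of which 7 could be tested. In VCR against NC 5 of them rose and none fell, where 42.1% of all genes rose. Scaled on Sertoli genes, 1 was higher and 5 lower (median -0.71), and relative to other endothelial genes 1 higher and 2 lower. Of all genes, 6.82% were called higher and 75.9% lower on the Sertoli scale (median -1.8), and 14.1% and 66.2% on the other scale. Vegfd, a ligand of the lymphatic receptor Flt4 that in man also binds KDR, went from 4.20 to 7.76 CPM in NC to 23.3 to 53.2 CPM in VCR (log2 fold change 2.68 ± 0.33, adjusted p = 1.33e-06). Vegfa, the main ligand of both Kdr and Flt1, had 4.63, 1.83, 2.33 and 3.23 CPM in NC and 10.9, 9.27, 3.87 and 5.32 CPM in VCR, with overlap of the groups (1.29 ± 0.34, adjusted p = 0.00218). Vegfb, which binds Flt1 and not Kdr, rose by 1.34 ± 0.25 and Vegfc, another ligand of Flt4, by 1.14 ± 0.35. Placental growth factor, Pgf, which binds Flt1 alone of the pair, lay at 0.873 to 2.15 CPM in NC and 0.762 to 2.23 CPM in VCR (-0.08 ± 0.56). Of the angiopoietins, Angpt4 rose by 1.31 ± 0.42 (adjusted p = 0.00816). Angpt2, which can oppose Tek signalling, was at 3.17 to 3.59 CPM in NC and 1.68 to 2.96 CPM in VCR and did not pass (-0.41 ± 0.23, adjusted p = 0.115). Angpt1, the main activator of Tek, reached at most 0.608 CPM in any library, with 10 counts over all NC and 22 over all VCR libraries, and was not tested.

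Against ALL, 3 ligands rose in Low-VCR and 4 in High-VCR, where 36.4% and 42.4% of all genes rose. On the Sertoli scale 1 was higher and 4 lower in Low-VCR, and 1 higher and 5 lower in High-VCR. Of all genes, 3.04% and 5.01% were called higher on that scale and 76.8% and 76.1% lower. Vegfd rose by 2.65 ± 0.34 (Low-VCR) and 3.05 ± 0.34 (High-VCR), and Vegfc by 1.53 ± 0.37 and 1.35 ± 0.37. Vegfa (0.43 ± 0.34, adjusted p = 0.274) and Vegfb (0.56 ± 0.24, adjusted p = 0.0604) did not pass in Low-VCR and rose in High-VCR (1.20 ± 0.33 and 0.84 ± 0.24). Angpt4 rose in Low-VCR (1.13 ± 0.43) and did not pass in High-VCR (0.91 ± 0.43, adjusted p = 0.0659). Angpt2 fell in High-VCR by 0.89 ± 0.23 (adjusted p = 0.00248), from 3.42 to 5.57 CPM in ALL to 1.62 to 3.22 CPM. Of co-receptors and regulators of both pathways, 6 of 9 rose in VCR against NC and 1 fell (42.1% of all genes rose). Of these 9, 1 was higher and 7 were lower relative to Sertoli genes, and relative to other endothelial genes 2 were higher and 4 lower. Of all genes, 6.82% were called higher and 75.9% lower on the Sertoli scale, and 14.1% and 66.2% on the other scale. Nrp1, a co-receptor of Kdr, rose by 3.51 ± 0.29 in VCR against NC, and by 1.83 ± 0.27 (Low-VCR) and 2.92 ± 0.28 (High-VCR) against ALL, and was higher in High-VCR than in Low-VCR (1.09 ± 0.25, adjusted p = 0.0242). Flt4, the VEGF receptor of lymphatic vessels, rose by 2.24 ± 0.23 in VCR against NC and by 1.32 ± 0.22 (Low-VCR) and 1.95 ± 0.22 (High-VCR) against ALL.

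**Figure D4:**
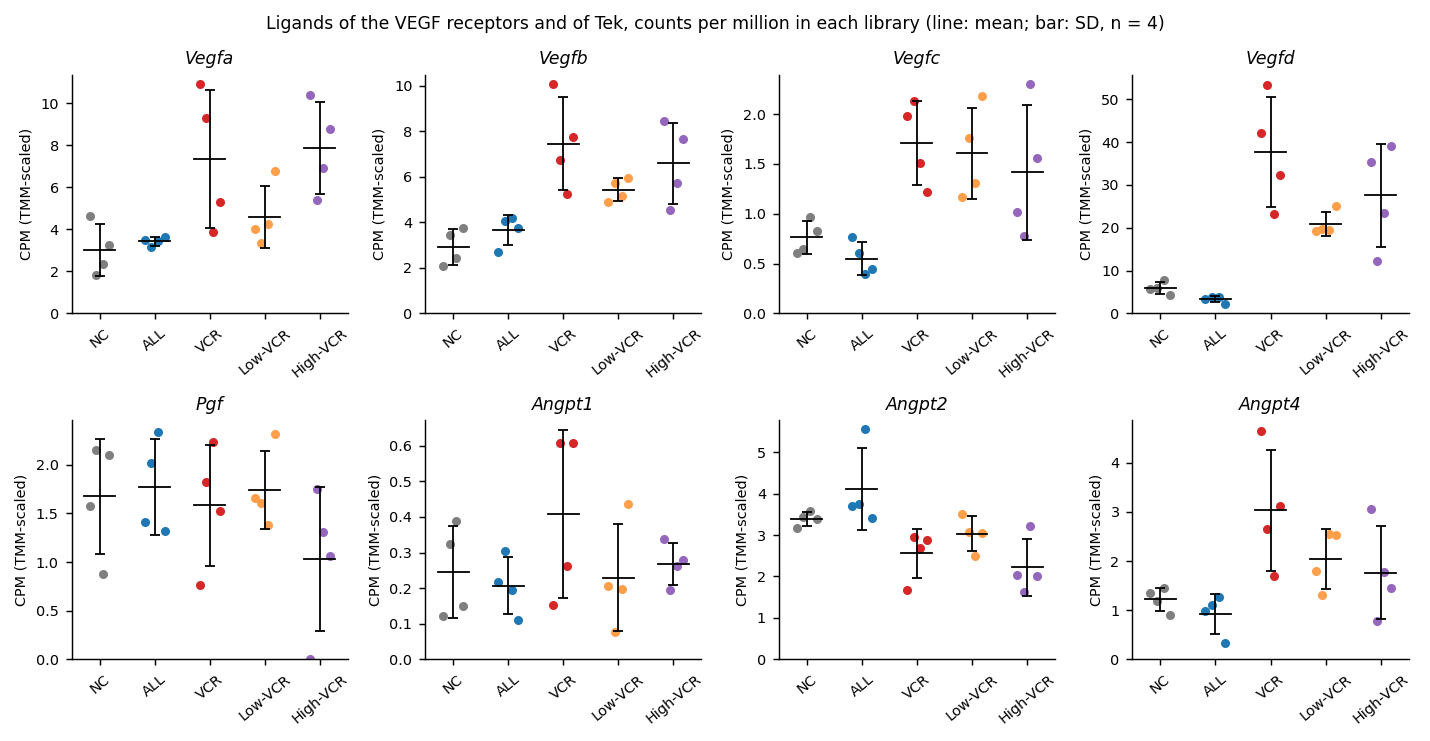
CPM (TMM-scaled) in each library of the VEGF and angiopoietin genes; points are libraries, lines are group means and bars are SD (n = 4). Vegfd reaches 23.3 to 53.2 CPM in VCR against 4.20 to 7.76 in NC, whereas Pgf, Angpt1 and Angpt2 show no such step.

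Of 21 other endothelial genes 20 were tested, of which 16 rose and 1 fell in VCR against NC, 12 rose and 1 fell in Low-VCR against ALL, and 16 rose and 1 fell in High-VCR against ALL. Of all genes, 42.1%, 36.4% and 42.4% rose in these 3 comparisons. The median log2 fold changes of the other endothelial list were 1.33, 1.11 and 1.48. Clec14a, a surface lectin of vessel sprouts, rose by 2.27 ± 0.22 in VCR and Cd34, a sialomucin of vessels that other stromal cells also carry, by 1.68 ± 0.18. The gene that fell in VCR was Nos3, the endothelial nitric oxide synthase (-0.99 ± 0.18, adjusted p = 7.66e-05), named after its value was seen. The remaining 3 (Sox7, Rasip1 and Adgrl4) did not pass, as Flt1 did not.

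Vein and capillary genes had the highest median of the vessel lists in VCR against NC (2.30, 6 of 7 higher and 1 lower), with Ephb4, the vein receptor for ephrin-B2, at 3.33 ± 0.33 and Nr2f2, a transcription factor of vein identity, at 2.46 ± 0.33. Artery and Notch genes had a median of 0.42, with 5 of 10 higher, near the 42.1% of all genes, and 3 lower, and Notch1 (2.08 ± 0.21) and Gja4, a gap junction gene of arteries (1.75 ± 0.30), rose. Of 10 genes of barrier and transport 9 rose and 1 fell. Among those that rose were Cavin1, a coat protein of caveolae (3.06 ± 0.22), and the drug pump Abcb1a (1.98 ± 0.19), of which vincristine is a substrate. Of 10 genes of activation and haemostasis 8 rose, among them the adhesion receptor Icam1 (3.08 ± 0.27) and the plasminogen activator Plat (2.68 ± 0.23), and 1 fell. All 7 tested genes of pericytes, the mural cells that wrap capillaries, rose in each drug group, with medians of 2.11 (VCR), 1.23 (Low-VCR) and 1.58 (High-VCR), and Rgs5 stood at 3.21 ± 0.33 in VCR. Of all genes, 42.1% (VCR), 36.4% (Low-VCR) and 42.4% (High-VCR) rose. These counts depend on the scaling. Of all genes in VCR against NC, 6.82% were called higher and 75.9% lower relative to Sertoli genes. Relative to other endothelial genes these shares were 14.1% and 66.2%. In VCR against NC relative to Sertoli genes, the other endothelial list had 4 higher and 9 lower, vein and capillary genes 2 and 2, artery and Notch genes 0 and 6, barrier and transport genes 1 and 1, and activation and haemostasis genes 4 and 3. Pericyte genes had 1 higher and 2 lower on that scale in VCR, 0 and 3 in Low-VCR and 0 and 2 in High-VCR. Against ALL, 3.04% (Low-VCR) and 5.01% (High-VCR) of all genes were called higher on it and 76.8% and 76.1% lower. Artery and Notch genes had 1 higher and 6 lower relative to other endothelial genes.

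Genes of other cells of the interstitium moved with the vessel genes. All 11 Leydig cell genes rose in VCR against NC, with a median of 2.72, where 42.1% of all genes rose. All 9 tested macrophage genes rose, with summed levels of 135 to 158 CPM in NC and 701 to 1140 CPM in VCR, and so did all 7 leukocyte genes, from 13.6 to 16.7 CPM summed to 86.7 to 154 CPM. The leukocyte list was at 59.3 to 72.0 CPM in Low-VCR and 60.2 to 118 CPM in High-VCR, against 16.1 to 21.2 in ALL. Ly6c1 and Pecam1 are also known from leukocytes, and the part of such cells in their values was not tested.

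**Figure D5:**
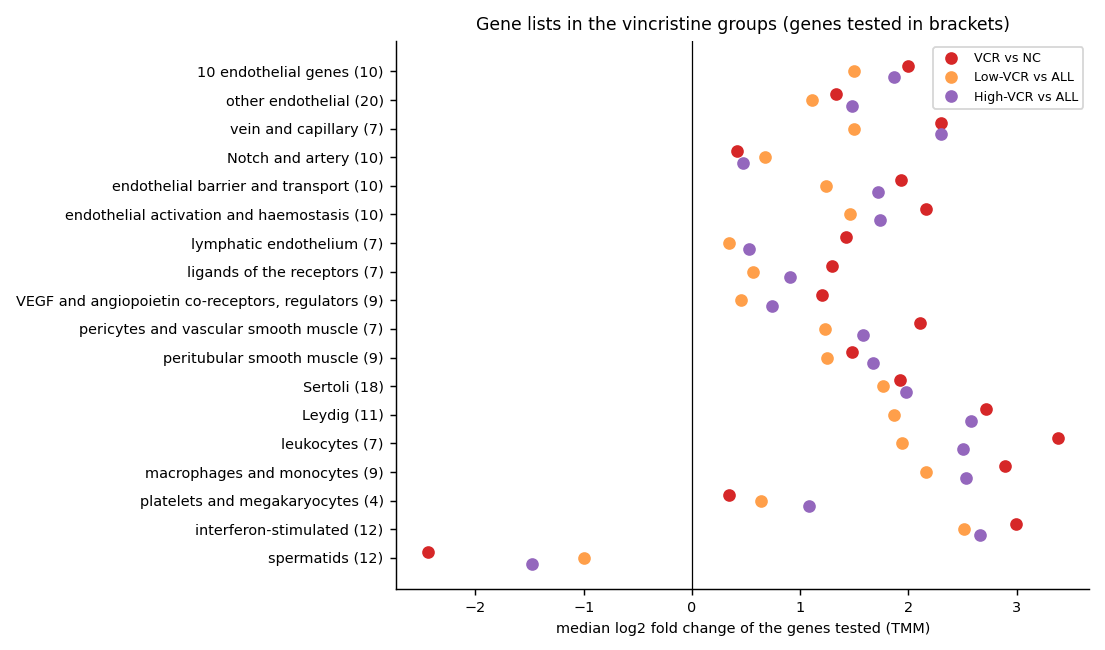
Median log2 fold change (TMM) of the tested genes of each list in VCR against NC, Low-VCR against ALL and High-VCR against ALL. The 10 endothelial genes lie at 2.00, 1.5 and 1.87, close to the Sertoli list at 1.92, 1.76 and 1.98, and the spermatid list lies left of 0 in all 3.

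The likeness of other genes to the 10 was measured as Pearson's r between their log2 CPM and the mean of the members' standardised log2 CPM. Over 20 libraries, which fall apart into those with and without the drug and so give high r to any gene that follows this step, Gdpd5, Pip4k2b, Dnajc5 and Cyb5r3 were nearest (r = 0.987 to 0.982). Over the 12 libraries given the drug, Atp6ap1, Tacr2, Sparcl1 and Got2 were nearest (r = 0.988 to 0.982), and of the 8 nearest genes of each set none was shared. Among the members over those 12 libraries, Esam (r = 0.924), Vwf (0.895) and Kdr (0.890) followed the mean of the other 9 most closely, and Flt1 (0.255) least. These libraries also share depth and the loss of spermatid RNA.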

How the data were processed

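The deposited table, read as 1 column per sample, held whole-number counts per gene symbol that the authors had not normalised. Build GRCm39 and the tools STAR 2.7.10b, Subread 2.0.3 (featureCounts), Trimmomatic 0.39 and DESeq2 1.36.0 appear in the submitters' processing notes. Their settings, the annotation and the handling of human reads are not given in the sources used here. Libraries were directional and made from poly(A) RNA, per the labels' protocols.

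The analysis used edgeR 4.0.16 under R 4.3.3. Genes passing filterByExpr (minimum count 10) entered 1 robust quasi-likelihood fit of 5 group means over 20 libraries (TMM, 15 residual degrees of freedom), adjusted by Benjamini-Hochberg over 16534 genes. SE were derived from the fold change and F statistic. Repeats scaled libraries on the median of 18 Sertoli or 20 other endothelial genes. The code was tested on simulated data. Alternatives included DESeq2 1.42.0, other scalings, the replicate block and leaving out each library. All 10 genes, all ligands and the 2 genes of smallest adjusted p per list were named. Members and lists were chosen with earlier results of these data known. The interval of the Ly6c2 ratio and the floors cover counting error only. That of the Flt1 fold change came from the fit and includes spread among libraries.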

Additional observations from a re-analysis of the deposited data

Results flagged for a closer look

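In 50 groups of 4 libraries (10 genes in 5 groups), 4 libraries stood apart from the other 3 by Dixon's criterion, which chance alone meets in about 1 group in 20. Pecam1 had 10.6 CPM in VCR 1, against 5.38 to 6.01 in the other 3 VCR libraries. Cdh5 had 54 CPM in VCR 2, against 30.7 to 33.4. Tek had 2.31 CPM in High-VCR 1, against 4.91 to 5.19. Vwf had 33.5 CPM in NC 4, against 27.6 to 28.4. Left out in turn, none of these libraries changed the call of its own gene in VCR against NC or High-VCR against ALL.

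The response to vincristine differed between engrafted Low-VCR mice and VCR mice for Kdr, with a log2 difference of -1.36 (adjusted p = 0.0356), and for Plvap, with -2.95 (adjusted p = 0.0422), by the test of the difference itself in edgeR's fit. Both calls lay near the threshold and were lost when any of several libraries was left out, as given with the result. Over all such runs the difference was -1.49 to -1.16 for Kdr and -3.82 to -2.54 for Plvap.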

How the results depend on the processing

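The 55 log2 fold changes of single members covered here were recomputed 889 times. Of these, 792 were unchanged, 65 lost their call, 17 gained one, 12 untested differences within library-name ranges moved, and 3 were recorded as changing sign. Unchanged meant the same direction and side of the threshold. For the untested differences within ranges it meant lying closer to the main value than the SD among libraries. Direction was checked there only for called members. The recorded sign changes were those of Flt1, with library size alone in VCR against NC (0.14) and High-VCR against ALL (0.18) and without High-VCR 2 in the latter, where leaving out libraries gave -0.24 to 0.05. Not recorded was Tek in Low-VCR against ALL, which was negative in the lower range of library names. There ALL had 3.59 and 2.02 CPM and Low-VCR 4.69 and 0.690 CPM. Another 35 differences of members, none of them called, are not printed: 17 of them changed sign at least once (43 of 599 recomputations), and none passed the threshold. Sign changes within library-name ranges are not in these counts. They were left out after these sign changes had been seen.

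With each library left out, the count of members called was 8 to 8 in VCR against NC, 5 to 5 in Low-VCR and 7 to 8 in High-VCR against ALL, 0 to 3 in High-VCR against Low-VCR, 2 to 6 in Low-VCR against VCR, and 0 to 4 in the Low-VCR difference of responses. Relative to Sertoli genes it was 0 to 1 in High-VCR against Low-VCR and 1 to 3 in Low-VCR against VCR, and relative to other endothelial genes 0 to 1 and 1 to 2. Fitting only the groups compared gave 0 for High-VCR against Low-VCR and 0 for Low-VCR against VCR. Fitted so, or with the library-name range as a term or library size alone, Low-VCR against ALL had 7. High-VCR against ALL had 6 with DESeq2, with its size factors or with only the groups compared, where Pecam1 and Vwf were lost. The mean of the other endothelial list in place of its median gave 5, 5 and 6 calls in VCR against NC, Low-VCR against ALL and High-VCR against ALL, in place of 7, 6 and 8. The causes were not tested.

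In no comparison were all 4 same-numbered pairs correlated over 0.1 in their deviations. In High-VCR against VCR 2 of 4 were (-0.38 to 0.53), as in High-VCR against Low-VCR (0.00 to 0.18), and 0 elsewhere, and at most 4 of 8 samples correlated best with their own number. With the replicate block the count was 1 in High-VCR against Low-VCR, 0 in the Low-VCR difference of responses, and 0 in High-VCR against Low-VCR relative to Sertoli genes. It was within 1.5 times of the main count elsewhere. By CPM in place of CPM per kb, Vwf ranked first in NC and VCR. Depth limits Plvap and Ly6c1 in NC and ALL, with 12 to 35 counts over 4 libraries, and Ly6c2 and Angpt1 throughout.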

Other observations

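Lymphatic vessel genes did not move as 1 group. In VCR against NC, 3 of 7 rose, about the 42.1% of all genes, and 1 fell. On the Sertoli scale 1 was higher and 2 lower, where 6.82% of all genes were called higher and 75.9% lower. Pdpn, a mucin of lymphatic endothelium that other stromal cells also make, rose by 3.80 ± 0.46 on the log2 scale, and Flt4 rose by 2.24 ± 0.23. Prox1, the transcription factor that sets lymphatic identity, fell by 3.28 ± 0.46 in VCR against NC (adjusted p = 5.96e-06), by 1.25 ± 0.41 in Low-VCR against ALL and by 3.26 ± 0.46 in High-VCR against ALL. Prox1 was named after its values were seen. Spermatid genes also fell in each drug group, and the part of lost germ cell RNA in the Prox1 values was not tested.

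Interferon-stimulated genes were higher in all 3 drug groups, with 11 of 12 called in each and medians of 2.99 (VCR), 2.51 (Low-VCR) and 2.66 (High-VCR). Under the same TMM scaling, 42.1% (VCR), 36.4% (Low-VCR) and 42.4% (High-VCR) of all genes were called higher. Gbp2, a guanylate-binding protein induced by interferon, rose by 2.88 ± 0.30 in Low-VCR and 3.33 ± 0.30 in High-VCR. Of the 9 genes of the contractile peritubular cells, 8 rose and 1 fell in each drug group, with medians of 1.48, 1.25 and 1.67. None of them was higher relative to Sertoli genes, and 4, 5 and 3 were lower in VCR, Low-VCR and High-VCR. Of all genes, 75.9%, 76.8% and 76.1% were called lower on that scale and 6.82%, 3.04% and 5.01% higher. Of interferon-stimulated genes 9, 8 and 6 were higher on that scale, and 0, 0 and 1 lower.

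Within the Ly6 family, 4 of 6 tested genes other than Ly6c1 rose in VCR against NC and 1 fell, with a median of 4.49. Of all genes 42.1% rose there. Relative to both reference lists, Vwf was lower in every drug group, although its CPM in VCR lay above NC in all 4 libraries. On these scales 60.8% to 76.8% of all genes were called lower. In VCR, Vwf (-0.4 and -0.91) fell less than the median of all genes (-1.28 and -1.8). So it did in Low-VCR (-0.79 and -1.46, medians -0.94 and -1.59) and High-VCR (-0.82 and -1.49, medians -1.13 and -1.76). Its VCR call relative to other endothelial genes was lost without NC 4 or VCR 1.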
